A study of Mus musculus with 11 samples.

Results

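Expression of 10 imprinted genes was followed in the livers of mice that expressed a decoy RNA against 2 miRNAs of an imprinted locus. They are *Meg3* and *Rian*, long non-coding RNAs of that locus, and the imprinted genes *Peg3*, *Plagl1*, *Igf2r*, *Cdkn1c*, *Zrsr1*, *Snrpn*, *Impact* and *Gnas*, which lie elsewhere in the genome. They are listed by name. Of the 10 genes, 8 are among the 13669 genes of the count table. Of these, 7 were found by symbol and *Zrsr1* by its gene ID, ENSMUSG00000044068, which the table lists as *Zrsr2-ps1*. *Plagl1* and *Gnas* were not analysed here. All 8 genes passed the filter on low counts.

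The 11 livers came from male C57BL/6J mice of wild-type genotype on regular chow injected in the tail vein with a recombinant adeno-associated virus. In 6 animals (AAV-TuD) the virus expressed a tough decoy (TuD), an RNA hairpin that sequesters both *miR-379* and *miR-541*. In 5 animals (AAV-NC) it expressed a negative control sequence. Expression of either sequence was driven by the LP1 promoter, which is specific to hepatocytes. The animals were killed after a short fast. Their ages and the time since the virus are not given animal by animal in the sources used here.

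Imprinted genes are transcribed mainly from the chromosome of 1 parent, because DNA methylation is set differently in the egg and in the sperm and is kept on that chromosome in the embryo. Many of them act on fetal growth, and in the liver several are strongly expressed before birth and fall to low levels afterwards. The *Dlk1-Dio3* locus expresses protein-coding genes from the paternal chromosome and, from the maternal chromosome, a row of non-coding RNAs that includes *Meg3*, *Rian*, the small nucleolar RNAs hosted by *Rian*, and the *miR-379/miR-410* cluster. Of the other genes followed here, *Igf2r* and *Cdkn1c* are expressed from the maternal allele, and *Peg3*, *Zrsr1*, *Snrpn* and *Impact* from the paternal allele. The counts do not separate the alleles, so each value is the sum of both.

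The miRNAs that the decoy binds are shown here because they set which RNAs of the locus could pair with it or be released from the miRNAs. They are given 5′ to 3′ from RefSeq (GRCm38.p6), with the seed, bases 2 to 8, in capitals.
mmu-miR-379-5p: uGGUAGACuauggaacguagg
mmu-miR-541-5p: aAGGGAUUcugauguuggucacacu
Mature *miR-379-5p* lies at chr12:109709065-109709085 and *miR-541-5p* at chr12:109742422-109742446, both on the plus strand. *Meg3* (ENSMUSG00000021268) is annotated at chr12:109541001-109571726 and *Rian* (ENSMUSG00000097451) at chr12:109603940-109661716, also on the plus strand, in the GENCODE M21 annotation of GRCm38. *Rian* starts 32.2 kb after the end of *Meg3*. The *Mir379* hairpin starts 47.3 kb after the end of *Rian*, *Mir541* 80.7 kb and *Mir410* 82.0 kb. Thus both long RNAs lie upstream of the cluster, and their annotated transcripts do not reach it. No annotated transcript of the 8 genes holds either whole mature sequence, and the longest run shared with one of them was 11 bases, in *Rian* and in *Peg3*.

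Libraries were made from the 3′ ends of polyadenylated RNA, so that the read number of a gene does not grow with the length of its transcript. Levels are given as counts per 1000000 reads (CPM) after scaling with the TMM factors of edgeR, and differences as log2 fold changes of AAV-TuD against AAV-NC with their standard error (SE). Between 8148531 and 11971245 reads were counted per AAV-NC liver and between 8923726 and 12043959 per AAV-TuD liver. The AAV-NC liver with replicate number 7 (AAV-NC 7) stood apart, since transcripts of the major urinary protein genes took 40.2% of its reads whereas the remaining AAV-NC livers had 14.5% to 19.5% and AAV-TuD livers 8.58% to 32.3%, and its TMM factor was the lowest, 0.667. Results that rest on this liver are given with and without it. The labelled tissue was checked with 15 hepatocyte markers, all of which were in the table, with *Alb* at a mean of 21096 CPM and *Apoa1* at 6741 CPM in AAV-NC livers. Markers of other liver cells differed between the groups. With AAV-TuD, higher levels were found for 11 of 18 stellate cell markers tested, 9 of 14 Kupffer cell markers, 6 of 7 cholangiocyte markers and 2 of 19 endothelial markers, and lower for 1 of 15 hepatocyte markers, *Hnf4a*. The shares over all genes tested were 7.24% higher and 4.33% lower. The cholangiocyte markers *Epcam*, *Krt19* and *Ehf* passed the filter on low counts mainly or only through the AAV-TuD group. In bulk liver, fewer cells of a type and less RNA per cell cannot be told apart.

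Of the 8 imprinted genes, 1 was higher with AAV-TuD (*Snrpn*) and 2 were lower (*Peg3* and *Zrsr1*) at an adjusted p value below 0.05 (quasi-likelihood test of edgeR, adjusted by Benjamini-Hochberg over the 13334 genes tested). Among all genes tested, 7.24% were higher and 4.33% lower. The 5 other genes, *Meg3* and *Rian* among them, were not past the threshold. The groups did not overlap for 1 of the 8 genes, *Zrsr1*, against 7.39% of all genes tested. The log2 fold change was positive for 3 genes and negative for 5, with a median of -0.39, beside a median of -0.002 over all genes tested.

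**Figure D1:**
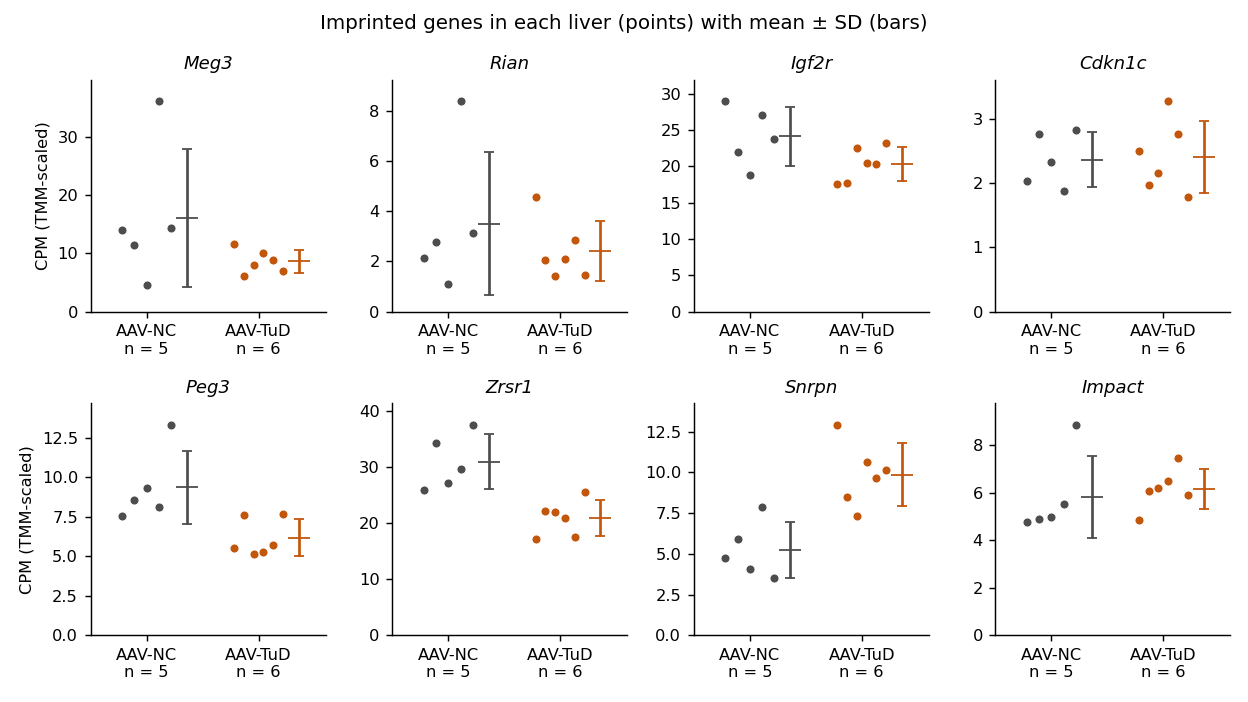
TMM-scaled CPM of the 8 imprinted genes in each liver (points), with the mean ± SD beside them, for 5 AAV-NC livers (grey) and 6 AAV-TuD livers (orange). The points of *Zrsr1* do not overlap between groups, those of *Snrpn* overlap in 1 AAV-TuD liver, and 1 AAV-NC liver lies far above the others for *Meg3* and *Rian*.

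*Meg3*, the maternally expressed long RNA closest to the imprinting control region, was detected in every liver, with 42 to 289 reads in AAV-NC and 72 to 134 reads in AAV-TuD livers. Its level in the AAV-NC livers 1, 2, 6, 7 and 8 was 14.0, 11.5, 4.65, 36.2 and 14.4 CPM, respectively. In the 6 AAV-TuD livers it lay between 6.16 and 11.6 CPM, with a median of 8.50 CPM. The AAV-NC group thus held both the highest and the lowest value of all livers, and 3 of its 5 livers were above all AAV-TuD livers. Mean levels were 16.1 ± 11.9 CPM (SD, n = 5) in AAV-NC and 8.63 ± 1.98 CPM (SD, n = 6) in AAV-TuD livers. The log2 fold change was -0.89 (SE 0.35, adjusted p = 0.108 in edgeR's quasi-likelihood test), and the two-sided exact permutation test of log2 CPM over all splits of the livers into 5 and 6 gave p = 0.197. Fold changes between 0.332 and 0.870 lie within 2 SE of the estimate. Without AAV-NC 7 the log2 fold change was -0.37 (adjusted p = 0.399 in edgeR), whereas without AAV-NC 6, the liver with the lowest level, it was -1.14 and past the threshold (adjusted p = 0.0219 in edgeR). The spread of *Meg3* among AAV-NC livers, a coefficient of variation of 73.6%, was 40.5% without AAV-NC 7. Counting error alone gives 8.53% at this depth, and 10.03% without that liver.

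*Rian*, the host of small nucleolar RNAs, was measured with fewer reads, 10 to 67 in AAV-NC and 15 to 53 in AAV-TuD livers. Its level in the AAV-NC livers 1, 2, 6, 7 and 8 was 2.15, 2.77, 1.11, 8.39 and 3.11 CPM. In AAV-TuD livers it lay between 1.41 and 4.57 CPM, with a median of 2.07 CPM. AAV-NC 7 had the highest and AAV-NC 6 the lowest value, the same livers as for *Meg3*, and the groups overlapped over most of their range. Mean levels were 3.51 ± 2.83 CPM (SD, n = 5) and 2.41 ± 1.18 CPM (SD, n = 6). The log2 fold change was -0.53 (SE 0.42, adjusted p = 0.472 in edgeR's quasi-likelihood test; p = 0.517 in the exact permutation test). Without AAV-NC 7 it was 0.07 (adjusted p = 0.936 in edgeR), so that the direction rested on this liver. Fold changes from 0.386 to 1.25 lie within 2 SE.

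Since *Meg3* and *Rian* lie in tandem on 1 strand, their levels were set side by side in each liver. For every 100 *Meg3* reads there were 15.4 to 24.2 *Rian* reads in AAV-NC livers, with a median of 23.2, and 17.4 to 39.6 in AAV-TuD livers, with a median of 26.5. In AAV-NC 7 the ratio was 23.2, within the range of the other livers, so both RNAs were high there in the same proportion. As deviations of log2 CPM from the group mean, the 2 RNAs had a Pearson r of 0.88 over the 11 livers (permutation p = 0.00697) and a Spearman rho of 0.75 (permutation p = 0.0171). This pair had the highest r of the 28 pairs among the 8 genes, but with adjustment over the 28 pairs the permutation p was 0.195 for r and 0.479 for rho, and no pair was past 0.05. Without AAV-NC 7 the Pearson r was 0.76, and without the 2 livers farthest from the median of *Meg3* it was 0.62. The livers share their library and scaling factor for both genes, whose part in this relation was not tested.

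**Figure D2:**
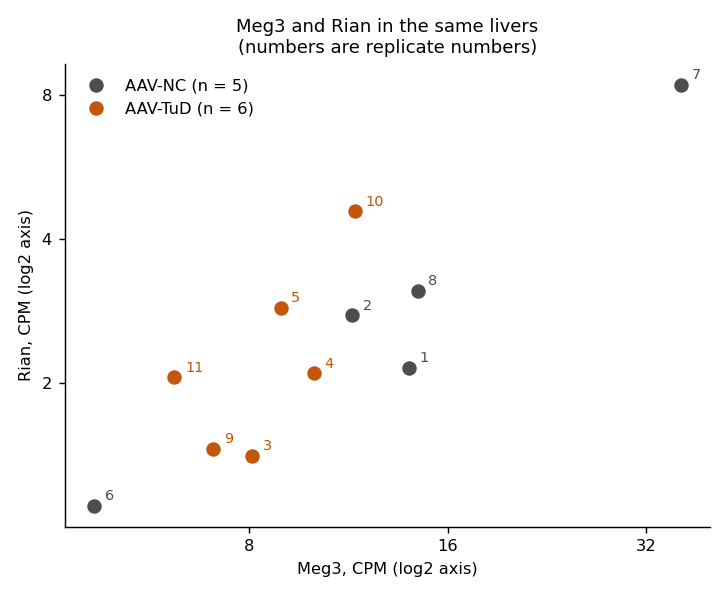
Level of *Rian* against that of *Meg3* in each of the 11 livers, on log2 axes in TMM-scaled CPM, with replicate numbers beside the points (grey, AAV-NC; orange, AAV-TuD). AAV-NC 7 lies at the upper right with 36.2 CPM of *Meg3* and 8.39 CPM of *Rian*, and AAV-NC 6 at the lower left with 4.65 and 1.11 CPM.

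The genes whose deviations from the group mean were most like those of *Meg3* over the 11 livers, among genes that averaged 50 reads or more, were *Mknk2*, which encodes a kinase of the translation factor eIF4E (Pearson r = 0.91), *Mrps15*, a protein of the mitochondrial ribosome (r = 0.90), and *Rogdi* (r = 0.89). Those most like *Rian* were *Isoc2a* (r = 0.95), *Snrpa*, a protein of the U1 small nuclear ribonucleoprotein (r = 0.95), and *Gin1* (r = 0.91). These were the highest values among many genes and are given as a description. All 6 genes were higher in AAV-NC 7 than in the other AAV-NC livers, and without this liver r lay between 0.77 and 0.83 for the *Meg3* genes and between 0.82 and 0.91 for the *Rian* genes. By Spearman's rho the leading genes were *Psme2b*, *Cltc* and *Bst2* for *Meg3*, and *Grtp1*, *Reep5* and *Snrpa* for *Rian*. Only *Snrpa* was among the leading 3 of *Rian* by both measures.

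The neighbours of the 2 long RNAs on chromosome 12 were examined next. Within 1 Mb of *Meg3* or *Rian*, 10 other genes were tested, 0 were higher and 0 were lower with edgeR, and their log2 fold changes lay between -0.28 and 0.31. The nearest tested gene before *Meg3* was *Wdr25*, 512.5 kb away, with 0.487 to 2.25 CPM in AAV-NC and 0.845 to 1.81 CPM in AAV-TuD livers. The nearest after *Rian* was *Gm3379*, 232.7 kb away, with 118 to 150 CPM in AAV-NC and 98.7 to 123 CPM in AAV-TuD livers. *Gm3379* had the smallest adjusted p value of the 10 (log2 fold change -0.24, adjusted p = 0.0731 in edgeR), and with DESeq2 it was past the threshold (adjusted p = 0.0474). It was also the single gene of the 10 with an unadjusted p under 0.05, and with limma's voom 0 were called. *Dlk1*, *Rtl1*, *Dio3* and *Mirg*, the other large transcripts of the locus, were not analysed here. *Meg3* and *Rian* were therefore the only maternal long RNAs of the locus followed in these counts. They do not show how the other maternal RNAs of the locus behaved. The paper reports that the decoy lowered host transcripts of the miRNA cluster in liver, *Mirg* among them.

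**Figure D3:**
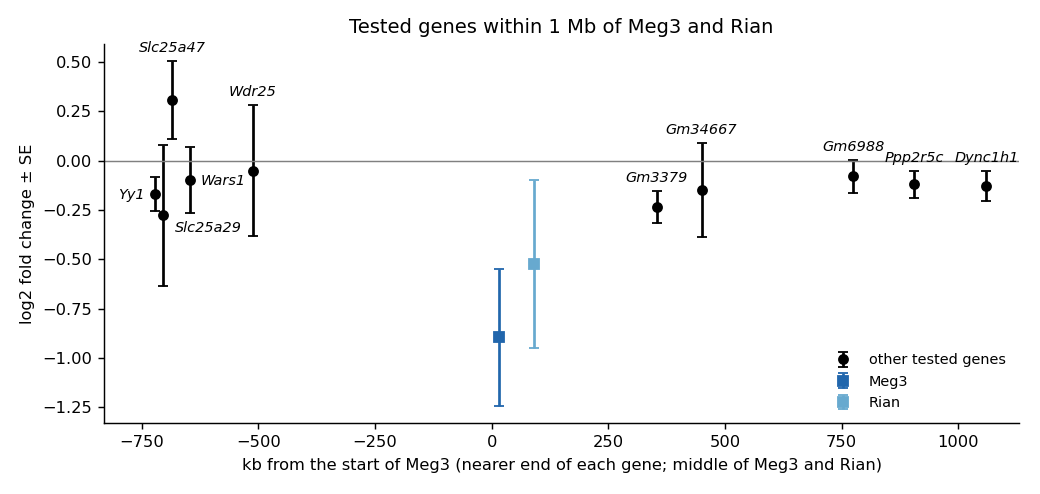
Log2 fold change ± SE of AAV-TuD against AAV-NC for *Meg3* and *Rian* (squares, at their middle) and the 10 other tested genes within 1 Mb (circles, at their nearer end), by distance in kb from the start of *Meg3*. The 10 other genes lie between -0.28 and 0.31, and *Meg3* and *Rian*, at -0.89 and -0.53, have wide errors.

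*Igf2r* (chr17:12682406-12769664, minus strand) encodes the cation-independent mannose 6-phosphate receptor, which sorts lysosomal enzymes and takes up IGF2 for degradation. Its level in the AAV-NC livers 1, 2, 6, 7 and 8 was 29.0, 22.03, 18.8, 27.0 and 23.7 CPM, and in AAV-TuD livers it lay between 17.6 and 23.2 CPM with a median of 20.4 CPM. All 6 AAV-TuD livers were below the AAV-NC median, but only 2 were below every AAV-NC liver. Means were 24.1 ± 4.03 (SD, n = 5) and 20.3 ± 2.34 CPM (SD, n = 6), with a log2 fold change of -0.25 (SE 0.12, adjusted p = 0.184 in edgeR's quasi-likelihood test; p = 0.0887 in the exact permutation test). The antisense RNA *Airn*, which is transcribed from the paternal allele across *Igf2r* on the opposite strand, had 1.43 ± 0.590 CPM (SD, n = 5) in AAV-NC and 2.24 ± 0.542 CPM (SD, n = 6) in AAV-TuD livers and was not past the threshold (adjusted p = 0.149 in edgeR). The strand setting of the counting is not given in the sources used here, so reads of the overlapping part cannot be assigned with certainty. *M6pr*, which encodes the smaller, cation-dependent mannose 6-phosphate receptor, was at 24.0 ± 2.52 CPM (SD, n = 5) and 25.1 ± 1.92 CPM (SD, n = 6).

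*Cdkn1c* (chr7:143458339-143461050, minus strand), which encodes the cyclin-dependent kinase inhibitor p57, had the lowest mean level of the 8 genes in AAV-NC livers. Without AAV-NC 7, however, the mean of *Rian* in AAV-NC livers was lower, 2.28 CPM against 2.49 CPM for *Cdkn1c* (n = 4). *Cdkn1c* had 15 to 36 reads per liver over both groups. It was at 2.36 ± 0.426 CPM (SD, n = 5) in AAV-NC and 2.41 ± 0.556 CPM (SD, n = 6) in AAV-TuD livers. The values ranged from 1.88 to 2.82 CPM and from 1.78 to 3.28 CPM, so that both the lowest and the highest liver were in the AAV-TuD group. The log2 fold change was 0.01 (SE 0.21, adjusted p = 0.976 in edgeR), and fold changes between 0.755 and 1.35 lie within 2 SE. The spread among livers, 18.0% in AAV-NC and 23.1% in AAV-TuD, was about that of counting error, 21.9% and 19.4%, and a change of less than this range was not detectable at this depth.

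Among the paternally expressed genes, *Peg3* (chr7:6703892-6730431, minus strand) encodes a large zinc finger protein. Its level in the AAV-NC livers 1, 2, 6, 7 and 8 was 7.52, 8.56, 9.30, 8.14 and 13.3 CPM, and in AAV-TuD livers it lay between 5.16 and 7.69 CPM with a median of 5.63 CPM. Of the 6 AAV-TuD livers, 4 were below every AAV-NC liver, and the other 2, AAV-TuD 9 and 11, just exceeded AAV-NC 1. Mean levels were 9.37 ± 2.31 CPM (SD, n = 5) and 6.17 ± 1.17 CPM (SD, n = 6), a log2 fold change of -0.61 (SE 0.17, adjusted p = 0.0283 in edgeR's quasi-likelihood test; p = 0.013 in the exact permutation test). The call was close to the threshold, and it was lost without the AAV-NC liver 6 or 8 or the AAV-TuD liver 4, 5 or 10, with adjusted p values in edgeR of up to 0.0834 and a log2 fold change of -0.44 without AAV-NC 8.

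*Zrsr1* (chr11:22972005-22976496, plus strand), which encodes a splicing protein related to the U2AF small subunit, had the highest mean level of the 8 genes in AAV-NC livers. In the AAV-NC livers 1, 2, 6, 7 and 8 it was at 25.9, 34.4, 27.2, 29.7 and 37.6 CPM. In AAV-TuD livers it lay between 17.2 and 25.6 CPM, with a median of 21.5 CPM. All 6 AAV-TuD livers were below all 5 AAV-NC livers, although the gap between the nearest livers, 25.6 and 25.9 CPM, was small. Means were 30.9 ± 4.91 CPM (SD, n = 5) and 20.9 ± 3.18 CPM (SD, n = 6), with a log2 fold change of -0.57 (SE 0.12, adjusted p = 0.00785 in edgeR's quasi-likelihood test; p = 0.00433 in the exact permutation test, where the smallest p is 0.00216). The call held without each of the livers in turn, with log2 fold changes between -0.63 and -0.48. *Zrsr1* lies inside *Commd1*, which is on the opposite strand and was at 9.31 ± 1.59 CPM (SD, n = 5) and 9.67 ± 2.02 CPM (SD, n = 6). Its paralog *Zrsr2* was at 15.3 ± 2.02 CPM (SD, n = 5) and 14.8 ± 1.20 CPM (SD, n = 6). No 50-base window of the last 500 bases of the *Zrsr1* transcripts was shared with a transcript of another gene, *Zrsr2* included.

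*Snrpn* (chr7:59982495-60140219, minus strand) encodes SmN, a core protein of the small nuclear ribonucleoproteins that is best known from neurons. Its level in the AAV-NC livers 1, 2, 6, 7 and 8 was 4.77, 5.92, 4.10, 7.89 and 3.50 CPM. In AAV-TuD livers it lay between 7.32 and 12.9 CPM with a median of 9.89 CPM. All but 1 of the AAV-TuD livers were above every AAV-NC liver, the exception being AAV-TuD 3, which was below AAV-NC 7 only. Means were 5.24 ± 1.73 CPM (SD, n = 5) and 9.86 ± 1.93 CPM (SD, n = 6), with a log2 fold change of 0.93 (SE 0.20, adjusted p = 0.00737 in edgeR's quasi-likelihood test; p = 0.00433 in the exact permutation test). This was a 1.90-fold higher level, and it was past the threshold under all 20 alternatives tried. *Snurf* and *Gm38393* are annotated on the same strand over *Snrpn*, so the reads can belong to transcripts that hold both *Snurf* and *Snrpn*. *Snhg14*, the long RNA that continues from this locus and carries small nucleolar RNAs, was at 4.69 ± 1.14 CPM (SD, n = 5) and 6.60 ± 1.17 CPM (SD, n = 6) and was not past the threshold (log2 fold change 0.50, adjusted p = 0.0797 in edgeR). *Ube3a*, which is transcribed towards *Snhg14* and encodes a ubiquitin ligase, was at 86.3 ± 5.06 CPM (SD, n = 5) and 82.1 ± 5.51 CPM (SD, n = 6). *Snrpb*, which encodes the SmB proteins that take the place of SmN in most tissues, was at 23.1 ± 1.80 CPM (SD, n = 5) and 22.8 ± 2.32 CPM (SD, n = 6).

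*Impact* encodes an inhibitor of GCN2, the kinase that lowers translation when amino acids are scarce. In the AAV-NC livers 1, 2, 6, 7 and 8 it was at 4.77, 4.91, 4.98, 5.51 and 8.86 CPM, and in AAV-TuD livers between 4.83 and 7.44 CPM with a median of 6.13 CPM. AAV-NC 8 was the highest of all livers, while 5 of the 6 AAV-TuD livers were above the AAV-NC median. Means were 5.81 ± 1.73 CPM (SD, n = 5) and 6.15 ± 0.844 CPM (SD, n = 6), with a log2 fold change of 0.07 (SE 0.17, adjusted p = 0.858 in edgeR). Without AAV-NC 8 it was 0.28. Fold changes between 0.822 and 1.33 lie within 2 SE.

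In AAV-NC livers the order of the levels was *Zrsr1*, *Igf2r*, *Meg3*, *Peg3*, *Impact*, *Snrpn*, *Rian* and *Cdkn1c*, from a mean of 30.9 to 2.36 CPM. Each gene overlapped with the next in this order over the 5 livers. *Peg3* was above *Impact* within each of the 5 livers, *Zrsr1* above *Igf2r*, *Igf2r* above *Meg3*, *Meg3* above *Peg3* and *Snrpn* above *Rian* in 4 of 5, and *Rian* above *Cdkn1c* in 3. *Impact* was above *Snrpn* in 2 livers only, so these neighbours could not be ordered. The same holds for *Rian* and *Cdkn1c*, whose means without AAV-NC 7 were in the reverse order, 2.28 and 2.49 CPM.

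**Figure D4:**
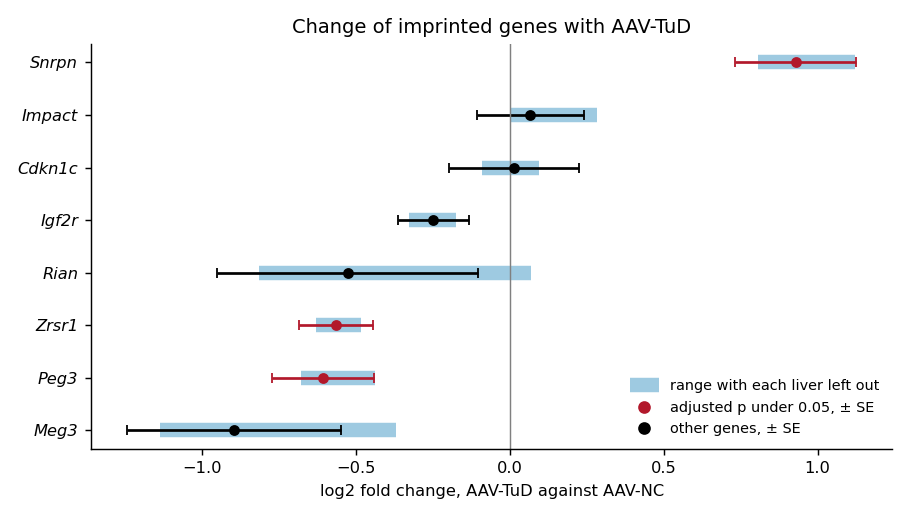
Log2 fold change ± SE of AAV-TuD against AAV-NC for the 8 imprinted genes (red, adjusted p under 0.05 in edgeR; black, other genes), with the range of the estimate when each liver was left out in turn (blue bars). *Meg3* and *Rian* have the widest bars, from -1.14 to -0.37 and from -0.82 to 0.07, and *Zrsr1* stays between -0.63 and -0.48.

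Because the decoy binds 2 miRNAs, the transcripts of the 8 genes were searched for the 7 bases that pair with bases 2 to 8 of each, GTCTACC for *miR-379-5p* and AATCCCT for *miR-541-5p*, on the transcribed strand only. Of the 6 protein-coding genes, 1 held a match in its longest annotated 3′ UTR, *Igf2r* for *miR-541-5p*. Among the 10971 genes tested that have an annotated 3′ UTR, 5.71% held a match for *miR-379-5p* and 9.53% for *miR-541-5p*. The match in *Igf2r* covers bases 704 to 710 of its 1307-base 3′ UTR and is printed with its surroundings, the paired bases in capitals.
Igf2r: ctctttgcacgAATCCCTctgg
*Meg3* held 2 matches for *miR-379-5p* and none for *miR-541-5p* in its longest transcript of 14548 bases, and *Rian* 2 for *miR-541-5p* and none for *miR-379-5p* in 8089 bases. Over all genes tested, 12.6% of the longest transcripts held a match for *miR-379-5p* and 16% for *miR-541-5p*. *Peg3*, *Zrsr1* and *Snrpn*, the genes that differed between the groups, held no match for either miRNA in their longest transcripts. The longest transcript of *Igf2r*, of 8887 bases, also held 1 match for *miR-379-5p*, and its longest 3′ UTR held none. A match is a string of letters and does not show that the miRNA binds there. The paper reports that the decoy also lowered other miRNAs of the cluster and their host transcripts in liver. Matches for those miRNAs were not searched for.

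To place the 8 genes among other imprinted genes, 72 further genes were listed by the parental allele from which they are known to be expressed. The lists were not limited to genes imprinted in adult liver. Whether the listed genes were imprinted in these livers was not tested. Of the 72 genes, 35 were tested, 5 were higher with AAV-TuD and 0 were lower with edgeR, 14.3% in all beside 11.6% among all genes tested. The median log2 fold change of the 35 genes was 0.04. At an unadjusted p under 0.05, 3 of the 35 were lower. With DESeq2, 1 was lower, *Ddc*, and with voom 0. Of the 5 higher genes, *H19*, *Ppp1r9a*, *Slc22a3* and *Ano1* are on the list of maternally expressed genes (24 tested) and *Sgce* on that of paternally expressed genes (11 tested).

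*H19*, a long non-coding RNA that is abundant in fetal liver and is silenced after birth, had 13 reads over all AAV-NC livers and 301 over the AAV-TuD livers. It was at 0 to 0.664 CPM in AAV-NC and at 0.845 to 14.3 CPM in AAV-TuD livers, and the groups did not overlap. The highest liver was AAV-TuD 10, and the other AAV-TuD livers had a mean of 2.39 ± 1.56 CPM (SD, n = 5) beside 0.301 ± 0.278 CPM (SD, n = 5) in AAV-NC livers, a ratio of 7.96, against 14.6 with all AAV-TuD livers. The log2 fold change was 3.84 (SE 0.86, adjusted p = 0.0103 in edgeR's quasi-likelihood test; p = 0.00433 in the exact permutation test). No AAV-NC liver and 5 AAV-TuD livers had more than 10 reads, so that the gene passed the filter through the AAV-TuD group alone.

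*Ppp1r9a*, which encodes the actin-binding protein neurabin, was at 10.2 ± 1.92 CPM (SD, n = 5) in AAV-NC and 18.4 ± 3.90 CPM (SD, n = 6) in AAV-TuD livers, without overlap (log2 fold change 0.85, SE 0.16, adjusted p = 0.00348 in edgeR). *Slc22a3*, an organic cation transporter gene of the *Igf2r* domain, was at 2.75 ± 0.517 CPM (SD, n = 5) and 5.02 ± 0.934 CPM (SD, n = 6), again without overlap (log2 fold change 0.87, SE 0.18, adjusted p = 0.00634 in edgeR). Thus *Slc22a3* was past the threshold where its neighbours *Igf2r* and *Airn* were not, and the difference between these genes was not tested. *Ano1*, a calcium-activated chloride channel, was at 0.983 ± 0.442 CPM (SD, n = 5) and 2.13 ± 0.551 CPM (SD, n = 6), with an adjusted p of 0.0268 in edgeR, and exceeded 10 reads in 2 AAV-NC livers only. *Sgce*, which encodes epsilon-sarcoglycan, was at 1.90 ± 0.389 CPM (SD, n = 5) and 3.29 ± 0.976 CPM (SD, n = 6), with an adjusted p of 0.0494 in edgeR, and was called in only 8 of 20 alternatives. The most abundant imprinted genes were not past the threshold. *Slc38a4*, an amino acid transporter, was at 434 ± 60.1 CPM (SD, n = 5) and 446 ± 19.2 CPM (SD, n = 6), *Kcnq1ot1*, the long RNA that silences genes around *Cdkn1c*, at 124 ± 10.4 and 126 ± 22.1 CPM, and *Cd81* at 108 and 118 CPM. *Ddc* was at 92.9 and 65.7 CPM (log2 fold change -0.50, adjusted p = 0.0659 in edgeR) and *H13* at 65.9 and 60.1 CPM.

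**Figure D5:**
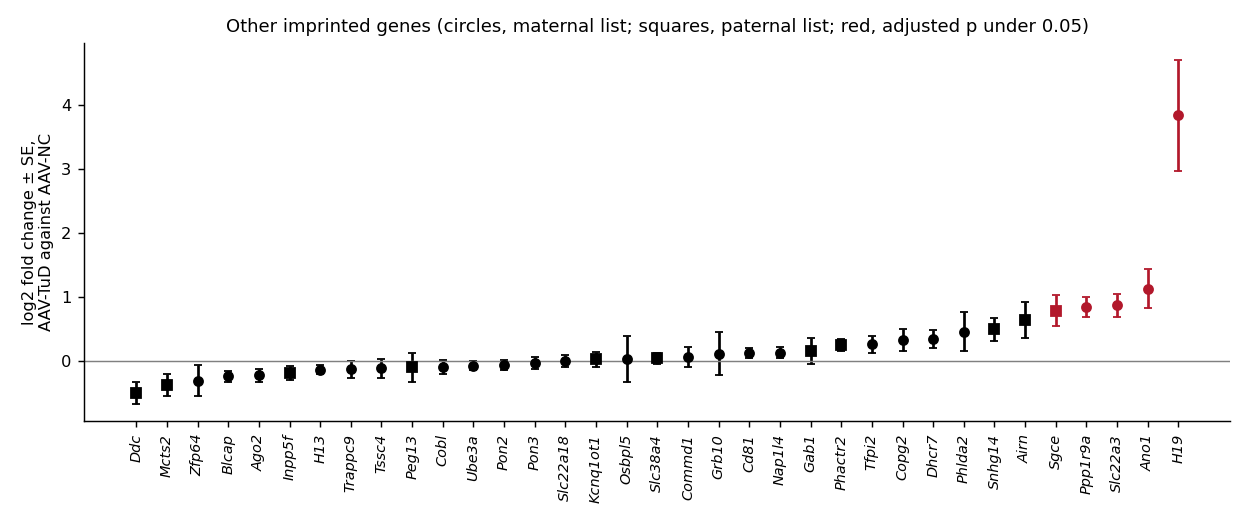
Log2 fold change ± SE of AAV-TuD against AAV-NC for the 35 other imprinted genes tested, in order of the estimate (circles, maternally expressed list; squares, paternally expressed list; red, adjusted p under 0.05 in edgeR). *H19* at 3.84 stands above the other genes, and 4 further genes between 0.79 and 1.13 were past the threshold.

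Markers of other liver cells were also compared between the groups. The summed level of the stellate cell markers was 281 to 368 CPM in AAV-NC and 477 to 624 CPM in AAV-TuD livers, that of the cholangiocyte markers 26.8 to 54.0 and 58.3 to 96.4 CPM, and that of the Kupffer cell markers 206 to 280 and 231 to 559 CPM. For stellate cells *Dcn* was at 150 ± 21.7 CPM (SD, n = 5) and 259 ± 23.4 CPM (SD, n = 6), whereas *Ecm1*, at 39.2 and 52.4 CPM, was not past the threshold. For cholangiocytes *Sox9* was at 22.9 ± 6.94 and 40.1 ± 5.53 CPM, and *Spp1* at 5.08 ± 1.93 and 23.1 ± 5.95 CPM. For Kupffer cells *Ctss* was at 27.2 ± 1.79 and 53.3 ± 13.9 CPM, and *Slc40a1* at 54.7 and 56.2 CPM. The summed endothelial markers were at 482 to 543 and 515 to 566 CPM, with *Maf* at 127 ± 14.8 and 154 ± 12.4 CPM and *Ptprb* at 109 and 110 CPM. The summed hepatocyte markers were at 43560 to 49593 and 49774 to 56656 CPM, but this sum was set by *Alb*, at 21096 ± 2304 and 28044 ± 2727 CPM. Without *Alb* the other 14 markers summed to 24048 to 26398 and 21643 to 25711 CPM, and the median log2 fold change of the 15 markers was -0.15, with 4 of 15 positive. Markers not analysed here were 2 of stellate cells (*Tagln* and *Acta2*) and 1 each of endothelial and Kupffer cells. Of 12 cholangiocyte markers listed, 9 were in the table and 7 passed the filter on low counts. *Epcam* exceeded the read number of this filter in 0 AAV-NC livers, *Krt19* in 1 and *Ehf* in 2. These markers thus passed it mainly or only through the AAV-TuD group, whereas *Spp1*, *Sox9* and *Pkhd1* exceeded that number in all 5 AAV-NC livers. No marker tested was at 0 in every liver of a group. The part of these cells in the changes of *Snrpn*, *H19* and the other higher genes, and in those of *Peg3* and *Zrsr1*, was not tested.

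The proteins that set and keep imprints were followed because the 8 genes depend on them. Of 26 genes tested, 4 were higher with AAV-TuD and 1 was lower, 19.2% in all beside 11.6% among all genes tested. *Dnmt3a*, a DNA methyltransferase, was at 19.01 ± 2.25 CPM (SD, n = 5) and 28.0 ± 3.53 CPM (SD, n = 6) (log2 fold change 0.56, adjusted p = 0.0039 in edgeR). *Ezh2*, the histone methyltransferase of Polycomb complex 2, was at 7.07 ± 1.11 CPM (SD, n = 5) and 11.98 ± 1.68 CPM (SD, n = 6), and *Hells*, a chromatin remodeler, at 1.80 ± 0.559 and 5.13 ± 1.81 CPM. *Uhrf1*, which brings DNA methyltransferase 1 to newly replicated DNA, was at 0 to 0.487 CPM in AAV-NC and at 1.13 to 2.92 CPM in AAV-TuD livers. *Uhrf1* had at most 5 reads in an AAV-NC liver and passed the filter through the AAV-TuD group alone. *Uhrf1*, *Hells* and *Ezh2* are also known to rise in dividing cells. The lower gene, named after its values were seen, was *Zfp445*, a zinc finger protein that binds imprinting control regions, at 70.6 ± 11.9 CPM (SD, n = 5) and 49.7 ± 6.31 CPM (SD, n = 6), with no overlap between the groups (log2 fold change -0.51, SE 0.11, adjusted p = 0.00884 in edgeR). The difference was past the threshold without each of the 11 livers in turn. Of the 21 genes of miRNA processing and turnover that were tested, 1 was higher, *Xrn2*, a nuclear exonuclease, at 45.5 ± 5.80 CPM (SD, n = 5) and 55.7 ± 3.72 CPM (SD, n = 6) (adjusted p = 0.0399 in edgeR), and 0 were lower (1 at an unadjusted p under 0.05, 0 with DESeq2 or voom).

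The partners of the 8 genes were then counted by pathway. The share called was 11.1% of the insulin-like growth factor genes and 42.9% of the cyclin, kinase and inhibitor genes. Among all genes tested it was 11.6%. Of 18 genes of the insulin-like growth factor axis, to which *Igf2r* belongs, 0 were higher with edgeR (3 at an unadjusted p under 0.05, 1 each with DESeq2 and voom) and 2 were lower, the binding protein genes *Igfbp2*, at 236 ± 10.002 CPM (SD, n = 5) and 185 ± 33.4 CPM (SD, n = 6), and *Igfbp5*, at 7.58 ± 0.779 and 5.11 ± 1.35 CPM. Both were close to the threshold, with adjusted p values of 0.0488 and 0.0466 in edgeR. Of 14 cyclins, cyclin-dependent kinases and their inhibitors, to which *Cdkn1c* belongs, 6 were higher and 0 were lower (also 0 at an unadjusted p under 0.05 and with DESeq2 or voom), with a median log2 fold change of 0.59. *Cdkn2c*, which encodes the inhibitor p18, was at 1.05 ± 0.387 CPM (SD, n = 5) and 4.11 ± 0.769 CPM (SD, n = 6), and *Cdkn1a*, which encodes the inhibitor p21 of the same family as p57, at 10.99 ± 5.41 and 42.2 ± 17.7 CPM. *Ccnd1*, cyclin D1, was at 12.02 ± 3.23 and 36.1 ± 13.9 CPM, and *Cdk1*, the mitotic kinase, at 1.04 ± 0.457 and 5.50 ± 2.43 CPM. *Cdkn1b*, which encodes p27 of the same family, was among the 8 genes not past the threshold, at 20.3 ± 2.38 and 20.9 ± 1.56 CPM (adjusted p = 0.821 in edgeR), and *Cdkn1c* itself was at 2.36 and 2.41 CPM. *Cdkn2c* exceeded 10 reads in 2 AAV-NC livers and *Cdk1* in 1, so that both passed the filter mainly through the AAV-TuD group. Markers of several other liver cell types were also higher with AAV-TuD, and their relation to these genes was not tested.

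Among the listed partners of the *Gnas* product 23.1% were called, beside 11.6% among all genes tested. Of these 26 G protein, adenylate cyclase and protein kinase A genes, 3 were higher and 3 were lower. The 4 with the smallest p were *Gnai2*, at 69.9 ± 1.63 CPM (SD, n = 5) and 92.9 ± 9.01 CPM (SD, n = 6), and *Gnai1*, at 1.08 ± 0.305 and 2.48 ± 0.444 CPM, both inhibitory G protein subunits, *Gna12*, at 8.40 ± 2.75 and 12.9 ± 1.37 CPM, and *Prkar2a*, a regulatory subunit of protein kinase A, which was lower at 182 ± 15.9 and 139 ± 12.5 CPM. The other 2 lower genes, named after their values were seen, were *Gcgr*, the glucagon receptor gene, at 45.1 ± 1.95 and 37.5 ± 3.34 CPM, and *Gnai3*, the remaining inhibitory subunit gene, at 24.9 ± 1.63 CPM (SD, n = 5) and 18.1 ± 4.31 CPM (SD, n = 6) (log2 fold change -0.46, adjusted p = 0.049 in edgeR). Thus the inhibitory subunit genes were not called in 1 direction, but the call of *Gnai3* was close to the threshold. *Gnai1* exceeded 10 reads in 1 AAV-NC liver only. Of 10 genes listed with the zinc finger factors *Plagl1* and *Peg3*, 2 were higher, *Cdkn1a* and *Adcyap1r1*, a receptor gene of the PACAP peptide, at 0.478 ± 0.290 CPM (SD, n = 5) and 1.603 ± 0.427 CPM (SD, n = 6). *Adcyap1r1* had at most 8 reads in an AAV-NC liver and passed the filter through the AAV-TuD group alone. *Plagl2*, the paralog of *Plagl1*, was at 2.67 ± 1.06 and 2.62 ± 0.437 CPM. Of 20 splicing genes listed with *Snrpn* and *Zrsr1*, and of 14 genes of the GCN2 pathway listed with *Impact*, 0 were past the threshold in either direction with edgeR, DESeq2 or voom. At an unadjusted p under 0.05, 1 splicing gene was higher and 1 lower, and 2 genes of the GCN2 pathway were higher.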

How the data were processed

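Livers of 11 male mice were analysed, 5 with AAV-NC and 6 with AAV-TuD, grouped by the sample titles. The authors prepared QuantSeq 3′ libraries from 500 ng RNA, aligned the reads to GRCm38 (mm10) with STAR 2.5.3a, counted them with Rsubread and tested them with DESeq2 1.38.3, per the labels and the methods. The deposited values are read counts per gene without normalization, for 13669 genes, each of which had 10 reads or more in 5 or more livers. The annotation, the strand setting and the handling of reads with several matches are not given in the sources used here. Totals of 8148531 to 12043959 reads per liver leave a gene at 2 CPM with counting errors of about 20%. The ranges within 2 SE use the SE of the edgeR fit, which covers the spread among livers as well as counting error. Nothing says more of the replicates than that they are separate livers.

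Genes that exceeded 10 reads in 5 or more livers entered edgeR 4.0.16 (R 4.3.3), with TMM factors and its quasi-likelihood test. The threshold was a Benjamini-Hochberg adjusted p of 0.05. The test was checked on simulated counts. Log2 CPM used a prior count of 2. Single values were tested by two-sided exact permutation of log2 CPM over all splits of the livers, and correlations with 100000 permutations within groups. Of the gene IDs, 13658 were in GENCODE M21. In 532 of these the annotation gives another symbol, and 140 rows have none.

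The genes and the lists were chosen with earlier results of these data known, and the lists were written from general knowledge. Named genes are the members, their paralogs, in each imprinted list up to 6 genes past the threshold and the 3 most abundant, in the other lists up to 4 past the threshold (2 most abundant for cell markers), the nearest neighbours, and the 3 genes most like *Meg3* and *Rian* in Pearson r. *Airn*, *Commd1*, *Snhg14* and *Snurf* are named for their position, and *Hnf4a*, *Zfp445*, *Cdkn1b*, *Gnai3* and *Gcgr* after their values were seen. The alternatives were DESeq2 1.42.0, edgeR with the size factors of DESeq2, with upper quartiles or with library sizes only, no filter, the filter of edgeR, voom of limma 3.58.1, removal of the 50 genes with most reads, a minimum of 0.5 for the size of the log2 fold change, and each liver left out.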

Additional observations from a re-analysis of the deposited data

Results flagged for a closer look

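Single livers that lay far from their group were looked for in 48 sets of values, the levels of the 8 genes, the *Rian* to *Meg3* ratio and the summed level of each gene list in each group, with Dixon's ratio of the gap to the range. Of these, 5 were past the 95% value, where chance alone gives about 1 in 20, or 2.4. *Rian* was highest in AAV-NC 7, at 8.39 CPM against 3.11 CPM in the next liver (ratio 0.724). *Impact* was highest in AAV-NC 8, at 8.86 CPM against 5.51 CPM (ratio 0.820). The summed level of cyclins, cyclin-dependent kinases and their inhibitors was highest among AAV-NC livers in AAV-NC 7, at 130 CPM against 111 CPM (ratio 0.734). The summed G protein and protein kinase A genes were lowest among AAV-TuD livers in AAV-TuD 11 (ratio 0.630), and the summed hepatocyte markers were highest in AAV-TuD 9 (ratio 0.766).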

How the results depend on the processing

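*Snrpn* was past the threshold under all 20 alternatives, with log2 fold changes of 0.81 to 1.22, and *Zrsr1* under all but library size alone (-0.34, adjusted p = 0.267 in edgeR). *Peg3* was lost in 6. *Meg3* ranged from -1.14 to -0.37 and *Rian* from -0.82 to 0.07 with each liver left out, *Rian* being reversed at 0.069 without AAV-NC 7. *Cdkn1c* changed sign with voom (-0.0206) and without 4 single livers (-0.0905 to 0.095 with each liver left out), and was highest with library size alone (0.24).

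With DESeq2, 1 other imprinted gene and 1 gene within 1 Mb were lower, against 0 each. With library size alone the median over all genes moved to a log2 fold change of 0.23, 71 genes were lower against 577, 0 members, 0 imprint maintenance genes and 0 partner genes were lower, and 17 partner genes were higher against 10. *Meg3*, *Peg3* and *Zrsr1* were then still below that median, but none was past the threshold. With a minimum of 0.5 for the size of the log2 fold change, 178 genes and 1 partner gene were lower, and 0 miRNA processing genes higher. With each liver left out, 675 to 1115 genes were higher and 337 to 714 lower, the fewest without AAV-TuD 4. The members stayed at 1 higher and 1 to 2 lower, losing *Peg3* without AAV-TuD 4, 5 or 10 or AAV-NC 6 or 8, and gaining *Meg3* without AAV-NC 6. Other imprinted genes were at 2 to 5 higher and 0 to 1 lower, imprint maintenance genes at 4 to 5 higher and 1 lower, miRNA processing genes at 0 to 1 higher, and partner genes at 8 to 11 higher and 1 to 4 lower. With all livers 5 partner genes were lower. *H19* and *Adcyap1r1* gave no value without 5 of the AAV-TuD livers, since they then fell under the filter. The next count leaves out *Hnf4a*, *Zfp445*, *Gcgr* and *Gnai3*, which were named after their values were seen. Calls of *Hnf4a*, *Gcgr* and *Gnai3* under the alternatives are not given here. Of 27 named genes outside the members that were past the threshold, 18 stayed so wherever they had a value and 0 reversed. The others were past it in 8 (*Sgce*, *Maf*), 9 (*Igfbp2*), 10 (*Igfbp5*), 12 (*Xrn2*), 16 (*Gna12*), 17 (*Ano1*), 18 (*Prkar2a*) and 19 (*Gnai2*) of 20 alternatives, whereas 11 of the 22 others changed sign at least once. No paired analysis was possible because the groups share no replicate number.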
